A study of Bombus terrestris with 8 samples.

Results

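Open chromatin of worker eggs was compared with that of adult workers in the buff-tailed bumblebee, *B. terrestris*, with 2 samples per stage. These are 4 of the 8 ATAC-seq samples of a series that also holds 2 larval and 2 pupal samples. The deposited peak lists of the 4 samples were joined wherever intervals overlapped by at least 1 bp, which gave 51969 merged regions, against 63245 when the lists of all 8 samples were joined. A merged region was called kept when all 4 lists had a peak in it, egg side when both egg lists and no adult list had one, and adult side when both adult lists and no egg list had one. By this rule 14573 regions were kept, 3565 were egg side and 3871 were adult side, while the other 29960 had a peak in some other combination of lists.

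An egg sample was a pool of straight, smooth worker eggs, made up to about the volume of an adult bee, and an adult sample was a whole individual worker. The bees came from commercial colonies and the labels describe no treatment or genotype. The larval and pupal samples, used below only to look up the regions, were also pools, of whole C-shaped larvae and of whole pupae with pigmented eyes and undeveloped wings. The 2 replicates of a stage are separate samples per the labels. Each list is thus an average over the tissues of a whole animal or of a pool, and fewer cells of a type that uses a region cannot be told apart from a less open region in each cell.

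In ATAC-seq, the transposase Tn5 inserts sequencing adaptors into DNA that is not packed by nucleosomes, so that places with many insertions mark open promoters, enhancers and other regulatory elements. The bumblebee undergoes complete metamorphosis. In the egg the embryo patterns its body and forms the larval tissues, and most adult structures, such as wings, legs and compound eyes, are built later, in the pupa. The egg and the adult worker are therefore the ends of worker development, with the larva and the pupa between them.

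The egg lists held 33612 and 30268 distinct intervals in replicates 1 and 2, and the adult lists 27135 and 31548. They covered 13.6 and 13.4 Mb in the egg, against 11.5 and 14.2 Mb in the adult. The median interval was 339 and 365 bp wide in the egg lists, against 349 and 365 bp in the adult lists. The ranges of the stages overlapped in all 3 measures. The median fold enrichment of a summit over the local background of its own library was 3.87 and 3.92 in the egg lists, above the 3.52 and 2.81 of the adult lists. With 2 samples against 2, the exact two-sided permutation test cannot give a p below 0.333, and this is the value it gave for the fold enrichment. Reads per peak were not part of the lists. The depth of each value is thus unknown, and the absence of a peak says only that none passed the authors' threshold, which lay at a q-value of 0.05 by the lowest −log10 q of each list (between 1.303 and 1.305).

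The kept regions made up 28% of all merged regions, the egg-side regions 6.86% and the adult-side regions 7.45%. The 2 sides were thus of similar size, with 0.921 egg-side regions for each adult-side region. Contigs placed on 1 of the 18 chromosomes of the Bter_1.0 assembly (NC contigs) held 42749 of the regions, of which 24.1% were kept, 7.32% egg side and 8% adult side. The 9220 regions on unplaced contigs (NW contigs) were kept more often, with 46.3% kept, 4.72% egg side and 4.87% adult side. On NW contigs, 1707 of the 4266 kept regions began at the first base of their contig, where 15 egg-side and 1 adult-side regions began.

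**Figure D1:**
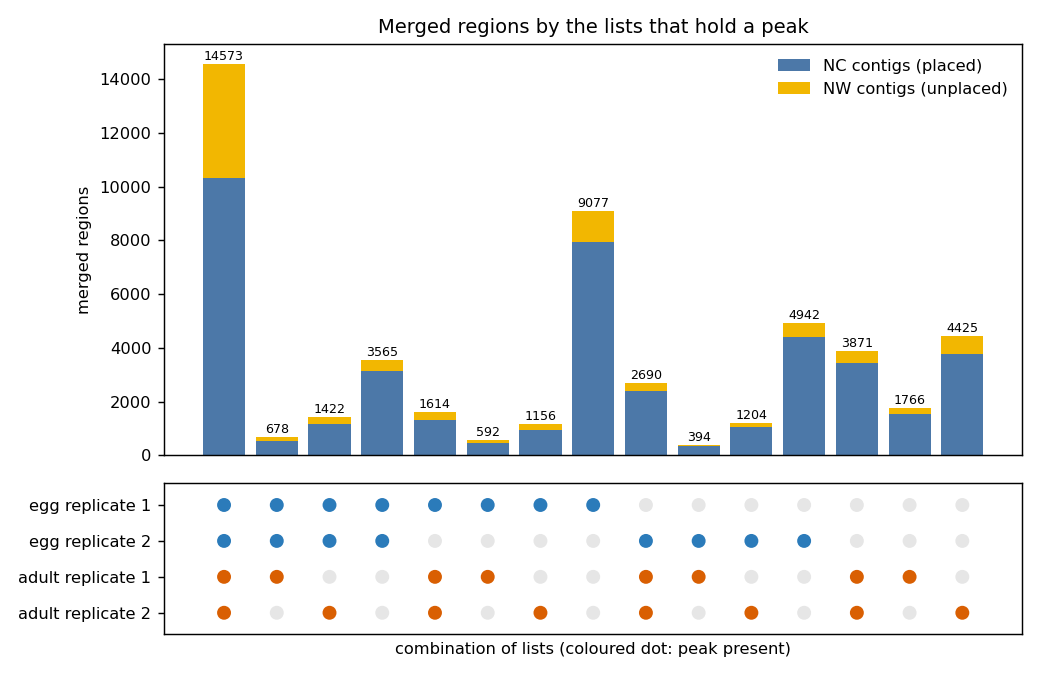
Number of merged regions (vertical axis) for each combination of the 2 egg and 2 adult lists that hold a peak, with coloured dots marking the lists and the bars split into NC and NW contigs. The 14573 kept regions form the tallest bar, and the next is that of the 9077 regions found in egg replicate 1 alone, ahead of the 3565 egg-side and 3871 adult-side regions.

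The largest of the remaining combinations was a peak in egg replicate 1 alone, with 9077 regions. Egg replicate 2 alone had 4942 regions, adult replicate 1 alone 1766 and adult replicate 2 alone 4425. Both egg lists and 1 adult list shared 2100 regions, 678 of them with adult replicate 1 and 1422 with adult replicate 2. Both adult lists and 1 egg list shared 4304 regions, 1614 with egg replicate 1 and 2690 with egg replicate 2. In the regions of both egg lists and 1 adult list, the peak of that adult list was weak, with a median −log10 p of 6.99. In those of both adult lists and 1 egg list, the peak of the egg list had a median of 10.4. Both medians lay well below those of the same lists in kept regions, which are given below.

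The egg replicates resembled each other less than the adult replicates did. The Jaccard index, which divides the bases shared by a pair of lists by all bases in either, was 0.476 for the egg pair and 0.630 for the adult pair. Egg replicate 1 had an index of 0.426 and 0.414 with adult replicates 1 and 2, below that of the egg pair. Egg replicate 2 had an index of 0.491 and 0.494 with the adult lists, above that of the egg pair. For this reason each egg list was also set against the adult lists on its own.

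With egg replicate 1 alone, 16225 of 47341 merged regions had a peak in the egg list and both adult lists, 12717 had one in the egg list and no adult list, and 6616 in both adult lists only. With egg replicate 2 alone, these numbers were 17292, 8574 and 5495 of 43116. On NC contigs, egg replicate 1 had 11119 regions without an adult peak and egg replicate 2 had 7581, against 5862 and 4735 regions with both adult peaks and none of that egg list. On NW contigs, egg replicate 1 had 1598 regions without an adult peak and egg replicate 2 had 993, against 754 and 760 on the adult side. Asking for both egg lists thus took the egg side down to 3565 regions, well below the count of either egg list alone.

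Seen from the single intervals, 37.8% of the intervals of egg replicate 1 and 28.3% of those of egg replicate 2 had no peak in either adult list, against 21.4% of adult replicate 1 and 26.5% of adult replicate 2 with no peak in either egg list. Both egg lists lay above both adult lists, egg replicate 2 only narrowly, and the exact two-sided permutation p was 0.333, the smallest that 2 against 2 samples allow. Both lists of the other stage had a peak at 50.01% and 58.6% of the egg intervals and at 57.9% and 51.5% of the adult intervals, where the stages overlapped. On NC contigs, the intervals without any peak of the other stage were 42.0% and 31.7% in the egg and 24.4% and 29.2% in the adult. On NW contigs they were 22.5% and 15.6% in the egg and 11.3% and 16.4% in the adult, where egg replicate 2 fell between the adult lists.

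Intervals without a peak in the other stage were mostly weak. Each list was cut into 5 equal parts by −log10 p. In the weakest part, 61.8% and 53.4% of the intervals of egg replicates 1 and 2 had no adult peak, and 41.8% and 50.1% of those of adult replicates 1 and 2 had no egg peak. In the strongest part these shares were 4.67% and 1.14% in the egg and 0.774% and 0.887% in the adult. The share fell at each step in all 4 lists. Egg replicate 1 lay highest at every step, with 314 of its 6723 strongest intervals lacking an adult peak, against 69 of 6054 in egg replicate 2. Egg replicate 2 and adult replicate 2 stayed within 4 percentage points of each other throughout.

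**Figure D2:**
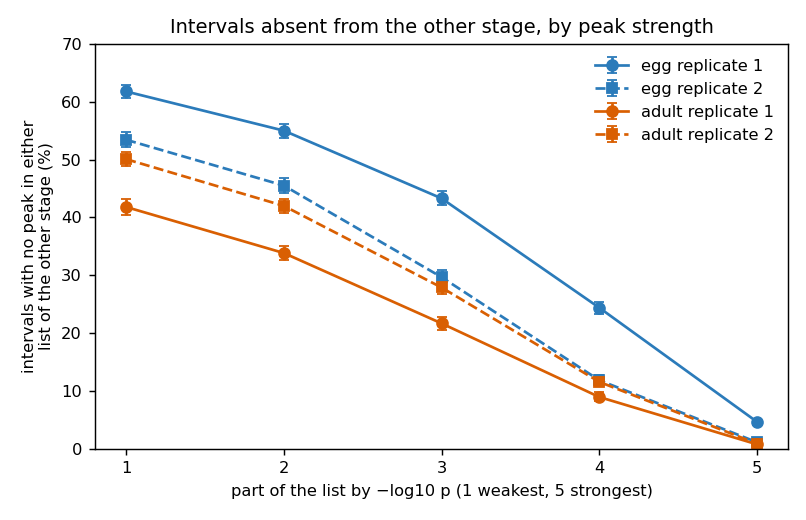
Percentage of the intervals of a list without a peak in either list of the other stage (vertical axis), by part of the list, cut into 5 equal parts by −log10 p (horizontal axis, 1 the weakest), for each egg and adult replicate, with 95% Clopper-Pearson intervals for counting error only. All 4 lines fall towards the strongest part, where they end between 0.774% and 4.67%.

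The egg-side regions were narrower and weaker than the kept regions, and so were the adult-side regions. Their median widths were 387 bp on the egg side, 358 bp on the adult side and 603 bp among the kept regions. A merged region spans every interval in it, so a kept region, joined from more lists than a side region, can be wider for this reason alone. In egg-side regions the median −log10 p was 11.7 in egg replicate 1 and 9.05 in egg replicate 2, whereas in kept regions these lists had 25.003 and 29.7. In adult-side regions adult replicates 1 and 2 had medians of 8.06 and 9.81, against 23.3 and 28.4 in kept regions. Taking the weaker list of the stage in each region, 1036 egg-side regions (29.1%) and 1005 adult-side regions (26.0%) reached a −log10 p of 10, and 173 and 181 reached 20. Which side was larger depended on the threshold. With the 27135 strongest intervals of each list there were 2707 egg-side and 4022 adult-side regions, of which 2368 and 3510 lay on NC contigs and 339 and 512 on NW contigs, while 13072 regions were kept. With peaks of −log10 p of at least 10 in every list, the egg side had 2144 regions and the adult side 1830.

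The strongest egg-side regions were taken as those with the highest −log10 p in the weaker egg list. Coordinates are those of Bter_1.0, and the genes at these places were not analysed here. The first, NC_015774.1:444071-444907, was 837 bp wide and had a fold enrichment of 14.1 in egg replicate 1 and 12.3 in egg replicate 2, and the nearest adult interval was 30994 bp away. Larva replicates 1 and 2 had a peak there with a fold enrichment of 6.88 and 4.11, and pupa replicates 1 and 2 with 11.5 and 10.7. This region was thus open in every sample of the 3 stages before the adult, and lowest in the larva.

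The next on NC contigs was NC_015771.1:4609266-4609862, with a fold enrichment of 9.85 and 11.1 in the egg lists, 6.88 and 5.23 in the larval lists and 5.87 and 7.53 in the pupal lists. On the same contig, NC_015771.1:227323-228132 had 8.27 and 8.77 in the egg, 3.91 and 4.11 in the larva and 7.24 and 6.95 in the pupa. NC_015772.1:6517112-6517576 had 6.88 and 7.21 in the egg, 5.05 and 3.19 in the larva and 3.47 and 3.82 in the pupa. All 3 regions therefore had a peak in each of the 6 samples that are not adult. NC_015764.1:5092762-5093175 had 10.4 and 8.39 in the egg, a peak of 7.15 in larva replicate 1 alone, and 11.1 and 8.52 in the pupa. The first on NW contigs, NW_003565404.1:250734-251180 and NW_003565435.1:195567-196077, had 8.52 and 7.58, and 7.89 and 7.24, in the egg lists. Both had a peak in larva replicate 1 and in both pupal lists. The regions named in this paragraph lay 3026 to 10695 bp from the nearest adult interval.

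The strongest adult-side regions had another pattern over the stages between. NC_015765.1:927793-928418 had a fold enrichment of 10.3 and 7.91 in adult replicates 1 and 2, and its nearest egg interval was 15417 bp away. No larval list had a peak there, and the pupal lists had 6.15 and 4.92. NC_015767.1:9390928-9391487 had 7.59 and 4.82 in the adult and 7.14 and 6.46 in the pupa, and NC_015768.1:2520933-2521429 had 7.09 and 5.59 in the adult and 6.84 and 5.13 in the pupa. These pupal values were close to the adult ones, and the nearest egg intervals lay only 1009 and 1329 bp away. NC_015767.1:7513285-7513900, 1998 bp from an egg interval, had 7.38 and 7.08 in the adult and a weak peak of 2.89 in pupa replicate 1 alone. NC_015764.1:14382697-14383163, 21227 bp from an egg interval, had 8.17 and 6.66 in the adult and 4.19 and 3.49 in the pupa. The first on NW contigs, NW_003565856.1:398-926 and NW_003566126.1:301904-302628, had 7.97 and 5.83, and 7.17 and 5.52, in the adult, and both had a peak in both pupal lists. None of these 7 adult-side regions had a larval peak, whereas all 7 egg-side regions had one in larva replicate 1.

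Over all side regions, the larval and pupal lists, which took no part in the choice of the regions, gave the same contrast. By the paper's counts of candidate peaks, both larval lists were much shorter than both pupal lists, and larva replicate 2 was the shortest. The shares were not adjusted for list length, so they can be compared between the sides within a list, but not between lists or stages. A larval peak was found in 28.8% of the egg-side regions (1026 of 3565, 95% Clopper-Pearson interval 27.3% to 30.3%) and in 5.06% of the adult-side regions (196 of 3871, 4.39% to 5.80%). Larva replicate 1 had a peak in 26.0% of the egg-side and 3.69% of the adult-side regions, and larva replicate 2 in 10.996% and 2.61%. A pupal peak was found in 61.2% of the egg-side and 46.9% of the adult-side regions. Pupa replicate 1 had 50.9% and 35.1%, and pupa replicate 2 had 54.0% and 41.0%. In each of the 4 lists the egg side had the higher share when both egg lists were asked for. This order turned round in all 4 lists without egg replicate 2, and in the pupal lists only without egg replicate 1. The kept regions had a larval peak in 80.7% and a pupal peak in 95.3% of cases. Regions of 1 egg list and 1 adult list only had a larval peak in 14.7% to 24.3% of cases. Their pupal share ran from 49.0% to 68.9%. The egg-side larval share lay above these regions and its pupal share within their range, whereas both adult-side shares lay below.

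By stage, 21.2% of the egg-side regions had both a larval and a pupal peak, against 3.15% of the adult-side regions. A larval peak with no pupal one was found in 7.60% of the egg-side and 1.91% of the adult-side regions, and a pupal peak with no larval one in 39.97% and 43.7%. Neither stage had a peak in 31.2% of the egg-side regions and 51.2% of the adult-side regions, so that about as many adult-side regions had no peak in the stages between as had one.

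The gap widened with the strength of the region. Where the weaker egg list had a −log10 p under 5, 20.03% of 724 egg-side regions had a larval peak, and 6.60% of 924 adult-side regions did by the same measure in the adult lists. From 5 to 10 the shares were 22.3% and 5.25%, and from 10 to 20 they were 41.1% and 2.55%. At 20 or more, 71.1% of 173 egg-side regions had a larval peak (63.7% to 77.7%), against 6.63% of 181 adult-side regions (3.47% to 11.3%). Most of these peaks were of larva replicate 1, found in 69.9% of these egg-side and 5.52% of these adult-side regions. Larva replicate 2 had 27.7% and 2.76%, against 9.81% and 3.35% under 5. The pupal shares grew with strength on both sides, to 82.1% and 72.9% at 20 or more. Among regions of 300 to 400 bp alone, an alternative chosen after the data were seen, the larval share was 24.1% on the egg side and 4.33% on the adult side. On NC contigs it was 27.9% and 4.32%, and on NW contigs 34.9% and 10.7%.

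**Figure D3:**
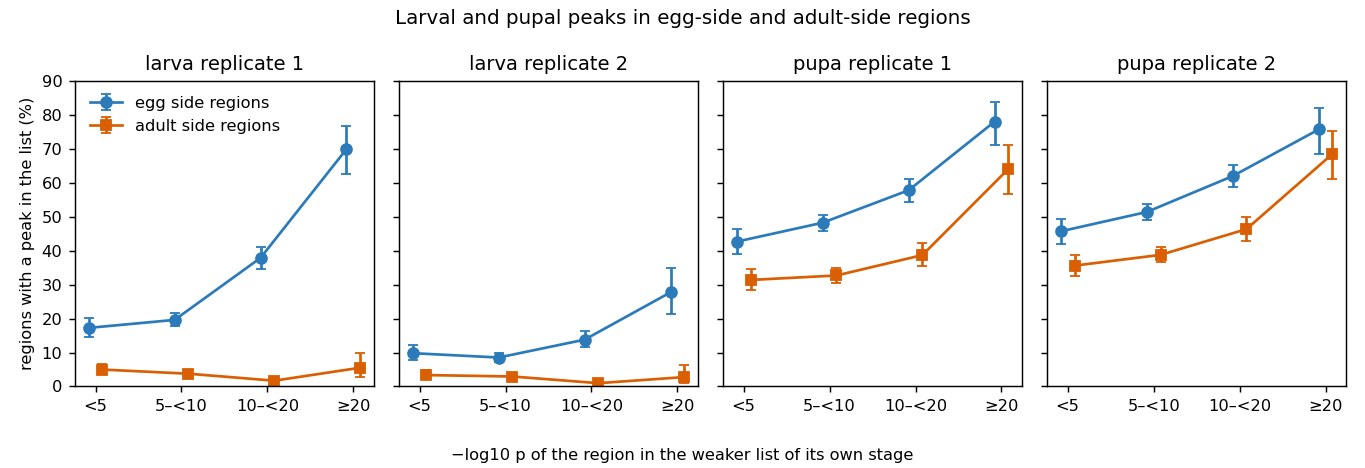
Percentage of egg-side and adult-side regions with a peak in each larval and pupal list (vertical axis), by the −log10 p of the region in the weaker list of its own stage (horizontal axis), with 95% Clopper-Pearson intervals for counting error only. In larva replicate 1 the egg side climbs to 69.9% while the adult side stays at 5.52% or less. In larva replicate 2 the egg side reaches 27.7%, and in both pupal lists both sides climb.

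The larval contrast turned round without egg replicate 2, and the pupal contrast without either egg list. With an egg list left out, 1 list defined the egg side and 2 lists the adult side. Regions of both adult lists and the egg list left out then counted as adult side. These settings therefore cannot tell a trait of the replicate from the unequal definition of the sides. Without egg replicate 1, a larval peak was found in 18.2% of the 8574 egg-side regions and 10.96% of the 5495 adult-side regions. At a −log10 p of 10 or more these shares were 29.0% and 9.15%, and at 20 or more they were 50.4% and 10.8%, so that the gap still widened with strength. Without egg replicate 2 the order turned round, with 12.6% of 12717 egg-side regions and 14.7% of 6616 adult-side regions. The shares were then 19.2% and 21.7% at 10 or more, and 31.9% and 32.7% at 20 or more, so that the gap seen with both egg lists was gone among the strong regions too. Without adult replicate 1 the larval shares were 32.4% and 4.92%, and without adult replicate 2 they were 31.4% and 5.56%.

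The pupal shares turned round with either egg list alone, in settings added after the data were seen. Without egg replicate 1, a pupal peak was found in 40.4% of the egg-side and 57.1% of the adult-side regions, and without egg replicate 2 in 43.4% and 54.1%. Each pupal list on its own turned round in the same way. Without adult replicate 1 the pupal shares were 64.4% and 37.6%, and without adult replicate 2 they were 66.1% and 43.4%. The combinations of lists show where the regions that move lie. Of the regions found in egg replicate 1 alone, 6.21% had a larval peak and 36.4% a pupal peak, and of those in egg replicate 2 alone, 10.4% and 25.4%. The regions of both adult lists and egg replicate 2, which count as adult side when egg replicate 2 is left out, had a larval peak in 28.4% of cases, and those of both adult lists and egg replicate 1 in 25.2%. The regions of a merged list are not replicates, so no test was run on these shares.

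Among the 18 placed chromosomes, 5 had more egg-side than adult-side regions and 13 had more adult-side ones. NC_015779.1 had the highest ratio, with 83 egg-side and 38 adult-side regions (2.18 to 1), while the ratio over all NC contigs was 0.915 and that of the other 17 ran from 0.668 to 1.39. The lists held 594 and 556 intervals on it in the egg, and 382 and 539 in the adult, so that adult replicate 1 was low there. Without adult replicate 1 there were 95 egg-side and 142 adult-side regions on this contig, a ratio of 0.669, when the ratio over all NC contigs was 0.505 and 3 of the other 17 had one at least as high. Without adult replicate 2 the ratio was 2.77. NC_015767.1 had the lowest ratio, with 141 egg-side and 211 adult-side regions.

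**Figure D4:**
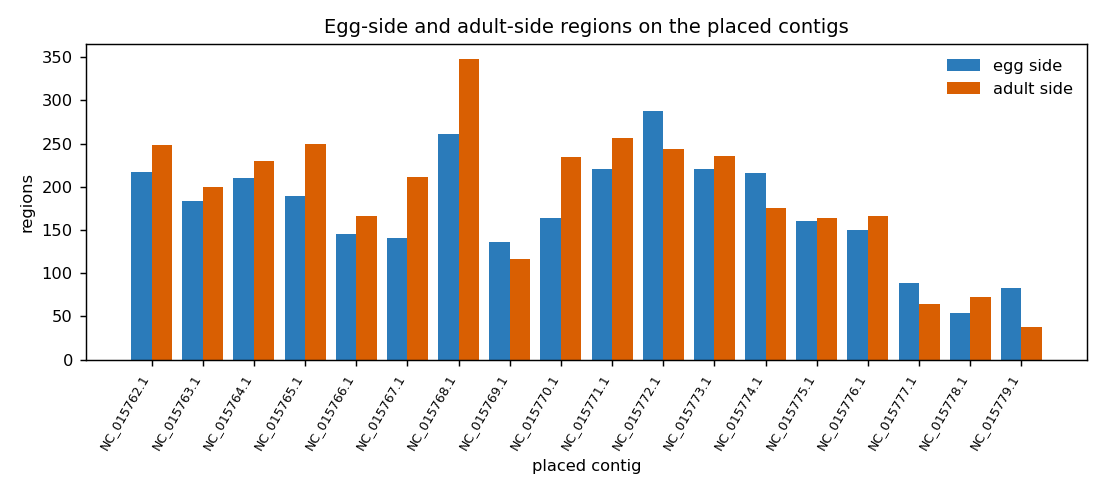
Number of egg-side and adult-side regions (vertical axis) on each of the 18 placed contigs of Bter_1.0 (horizontal axis). NC_015779.1, at the right, has 83 egg-side and 38 adult-side regions, and 13 of the contigs have more adult-side regions.

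Side regions stood next to others of their own side somewhat more often than the sizes of the sides would give. Along NC contigs, an egg-side region was followed by another egg-side region, with adult-side regions as the only other kind counted, in 55.5% of cases, where egg-side regions were 47.8% of the side regions. An adult-side region was followed by another in 59.3% of cases, where their share was 52.2%. The median gap between such neighbours was 13.9 kb on the egg side and 14.3 kb on the adult side. The nearest kept region lay a median of 6.98 kb from an egg-side and 6.62 kb from an adult-side region, and 10.6% and 12.01% lay within 1 kb of one.

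The longest run of egg-side regions without an adult-side one between them, picked out after the values were seen, was NC_015779.1:739696-1099026. It held 22 egg-side and 17 kept regions over 359 kb, with 77 and 63 intervals in the egg lists and 25 and 32 in the adult lists. Its strongest member, NC_015779.1:785163-785781, had a fold enrichment of 7.97 and 7.12 in the egg lists, and 10 of the 22 members reached a −log10 p of 10 in the weaker egg list. A larval peak was found in 7 members and a pupal peak in 12. Without adult replicate 1 the same span held 24 egg-side and 2 adult-side regions, and without adult replicate 2 it held 30 and 2, so that the run was broken by 2 adult-side regions with either adult list alone, while the excess of egg-side regions in the span remained. Runs of 17 and 13 egg-side regions were at NC_015769.1:3672759-4200993 and NC_015765.1:6269555-6504498.

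The longest adult-side runs had 15 regions each. At NC_015767.1:7707681-8152060 the egg lists had 30 and 22 intervals and the adult lists 47 and 47. At NC_015775.1:7070037-7326241 the egg lists had 24 and 39 intervals and the adult lists 48 and 61. A pupal peak was found in 8 and 6 of these 15 regions, and a larval peak in 1 and 0. In windows of 500 kb, of which 443 held a region, the median was 7 regions of each side. The window with the greatest excess of egg-side regions was NC_015779.1:1000001-1500000, with 25 against 6, and that with the greatest excess of adult-side regions was NC_015766.1:8000001-8500000, with 4 egg-side and 24 adult-side regions.

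The kept regions have a value in all 4 lists, so that their strength could be compared between the stages. By the lowest −log10 p over the 4 lists, the first on NC contigs was NC_015769.1:9732857-9733834, with a fold enrichment of 14.3 and 13.4 in the egg lists and 14.8 and 13.8 in the adult lists. It also had 14.5 and 14.8 in the larva and 14.3 and 13.5 in the pupa. Before any centring, its fold enrichment thus ran from 13.4 to 14.8 over all 8 samples. The typical fold enrichment differed between the lists, so these values do not show equal strength in the stages. The second, NC_015762.1:14534899-14535694, had 14.5 and 13.1 in the egg and 13.9 and 12.02 in the adult.

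For the comparison, the log2 fold enrichment of the best summit was centred on the median of its list, which was a fold enrichment of 5.58 and 5.57 in the egg lists and 4.83 and 3.96 in the adult lists. Each difference below is therefore relative to the typical kept region. From region to region, the 5th to 95th percentiles of the egg minus adult difference ran from −0.59 to 0.67. No kept region passed in limma with Benjamini-Hochberg adjustment over all 14573, with 0 higher (0%) and 0 lower (0%) in the egg, and the lowest adjusted p was 0.196. At an unadjusted p under 0.05 there were 1511 regions (10.4%), 847 higher and 664 lower in the egg. The SD over regions of the difference between replicates was 0.52 in the egg and 0.29 in the adult. More regions passed in limma fits without egg replicate 1 or without egg replicate 2, where the lone egg sample is assumed to vary as the adults do. These fits also pooled the variance more over regions. Their prior degrees of freedom were 12.8 and 217, against 5.59 in the main fit. Their calls thus rest less on the spread within each region and are not read as a result. Without adult replicate 1, 1 region passed, and without adult replicate 2 none, with 479 at an unadjusted p under 0.05.

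**Figure D5:**
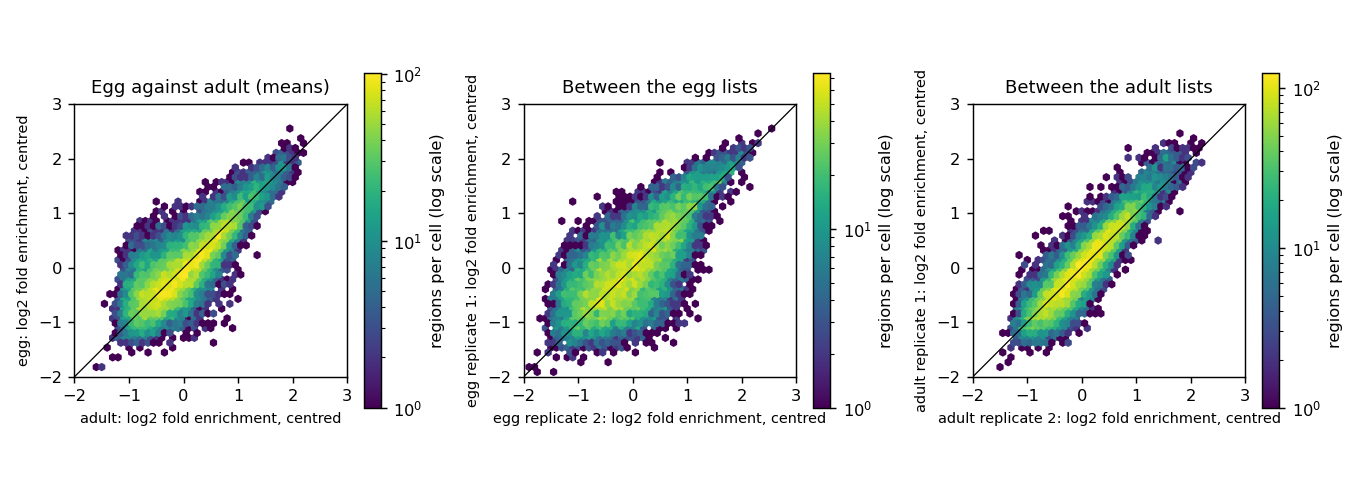
Centred log2 fold enrichment of the 14573 kept regions, with the mean of the egg lists against that of the adult lists (left), egg replicate 1 against egg replicate 2 (middle) and adult replicate 1 against adult replicate 2 (right), coloured by the number of regions on a log scale. The cloud of the egg replicates is wider than that of the adult replicates (SD of the difference 0.52 against 0.29), and no region passed limma's adjusted threshold.

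Over the kept regions, Pearson's correlation of log2 fold enrichment was 0.736 between the egg lists and 0.910 between the adult lists. It was 0.724 and 0.674 between egg replicate 1 and adult replicates 1 and 2, and 0.802 and 0.810 between egg replicate 2 and the same adult lists. These values are across regions of shared libraries, which are not independent replicates. By this correlation, as by the Jaccard index, egg replicate 2 had a higher value with both adult samples than with the other egg sample.

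Both egg values lay above both adult values in 2634 kept regions (18.1%), and both lay below in 3552 (24.4%). If the egg and adult values of a region were exchangeable, these orders together would hold in a share of 0.333 of regions. All regions come from the same libraries, and the adult lists had a correlation of 0.910. A difference from this share is therefore no test of stage, and other splits of the lists were not counted. Among the 2634, 187 regions were at least 1 higher on the log2 scale, and among the 3552, 111 were at least 1 lower. A larval peak was found in 86.1% of the 187 (80.3% to 90.7%) and in 54.1% of the 111 (44.3% to 63.6%), while a pupal peak was found in 96.8% and 96.4%. The egg values of the 111 were low, with a median −log10 p of 5.58 in the weaker egg list, as were the adult values of the 187, with a median of 5.50 in the weaker adult list. Such regions were therefore just inside the kept class.

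The kept regions with the greatest differences that did not overlap between the stages miss the adjusted threshold and are given as values. NC_015772.1:9291848-9292305 had a fold enrichment of 10.3 and 10.1 in the egg lists and 2.09 and 2.86 in the adult lists, a centred log2 difference of 1.71 ± 0.29 (SE). There the larva had 6.204 and 5.98, between the egg and the adult, and the pupa 4.38 and 6.99. NC_015765.1:1142577-1143324 had 9.91 and 8.62 in the egg and 2.79 and 1.98 in the adult (1.62 ± 0.24), and NC_015773.1:4080246-4080800 had 9.91 and 10.1 in the egg and 2.69 and 2.45 in the adult (1.61 ± 0.22). The last of these had no larval peak, and pupal values of 8.76 and 8.43.

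In the other direction, NC_015775.1:3483120-3483923 had 2.62 and 2.43 in the egg lists and 9.73 and 6.94 in the adult lists (−2.06 ± 0.24). NC_015773.1:4094818-4095604 had 2.204 and 2.13 in the egg and 8.60 and 5.003 in the adult (−1.95 ± 0.27). NC_015763.1:4129486-4130282 had 3.74 and 2.18 in the egg and 8.61 and 6.82 in the adult (−1.77 ± 0.30), with no larval peak and pupal values of 7.34 and 7.79. The adjusted p was 0.196 for all 6 of these regions in limma, and 0.129 after quantile normalization. The regions on NC_015773.1 that were higher and lower in the egg lay close together, with no overlap, so that differences in both directions occurred on a short stretch of that contig.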

How the data were processed

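ATAC-seq peaks were analysed from the deposited lists of 2 egg and 2 adult worker samples of *B. terrestris*, and the lists of 2 larval and 2 pupal samples were looked up in the same regions. The authors filtered reads with SOAPnuke, aligned them to Bter_1.0 with Bowtie2 2.2.5 and ran MACS2 2.2.5 on each sample on its own, as the submitters' processing notes and the paper's methods name them. Per summit, the deposited values are the fold enrichment (a ratio to the local background of the same library), the −log10 of the p-value and the −log10 of the q-value, none normalized between samples by the authors. Fold enrichments therefore depend on each library's background.

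Distinct intervals were merged where they overlapped by 1 bp or more. An interval took its best summit by −log10 p. Kept regions were compared by limma 3.58.1 (lmFit, eBayes with trend) in R 4.3.3 on median-centred log2 fold enrichment, with Benjamini-Hochberg adjustment at 0.05. The code was tested on simulated data with 200 changed regions. Shares carry 95% Clopper-Pearson intervals, which cover counting error only. The replicates of a stage are biological per the series' description, and with 2 per stage p-values measure the spread between these samples only. Counts were repeated with equal list lengths (the 27135 or 10000 strongest intervals), with −log10 p of at least 10 or 20, with 50% coverage of a region, with windows of 100 bp to each side of summits, with 500 bp clear of the other stage, by type of contig, and without each replicate.

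Regions are named by position, as the 5 on NC and 2 on NW contigs with the highest −log10 p in the weaker list of each side, the 3 kept NC regions most higher and most lower in the egg without overlap of the stages, and the 2 kept NC regions with the highest lowest −log10 p. Members and regions were chosen with earlier results of these data known. A genome and annotation of Bter_1.0 were not used here, so sequences, motifs, nearby genes and gene lists were not analysed. Python 3.11.15 with pandas 2.3.3, numpy 2.4.6, scipy 1.17.1 and matplotlib 3.10.9 was used.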

Additional observations from a re-analysis of the deposited data

How the results depend on the processing

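With the top 10000 intervals of each list, 5681 regions were kept, 710 were egg side and 1044 adult side. At −log10 p of at least 10 these were 9544, 2144 and 1830, at least 20 gave 5870, 968 and 822, and NW contigs alone 4266, 435 and 449. Leaving out a replicate gave 15352 to 17292 kept, 4250 to 12717 egg-side and 5495 to 8356 adult-side regions, since fewer lists must then agree. Of 15 alternatives, 11 had fewer egg-side than adult-side regions, and 14 a higher larval share on the egg side. A larval or pupal peak was found in 68.8% of the egg-side and 48.8% of the adult-side regions. With lists of equal length this was 73.8% and 53.4%, with the top 10000 98.7% and 91.2%, at 10 or more 87.9% and 67.7%, at 20 or more 97.6% and 90.02%, with 50% coverage 72.1% and 53.1%, and on NW contigs 72.4% and 46.1%. Egg-side regions of 300 to 400 bp, an alternative chosen after the data were seen, had 66.5%. Leaving out a replicate gave 47.6% to 73.2% and 40.04% to 59.5%, and the order turned round without egg replicate 1 (47.7% and 59.5%) and without egg replicate 2 (47.6% and 58.4%). The ratio on NC_015779.1 was 0.669 without adult replicate 1 and up to 3.09 with another replicate left out. Limma passed 0 to 3660 kept regions with a replicate left out and 1 with log2 of −log10 p as the value. The egg and adult samples share only replicate numbers, and the deviations of same-numbered samples had a correlation of 0.160 over regions. With the replicate block 562 regions passed, 390 higher and 172 lower in the egg. That fit pooled the variance fully over regions, with infinite prior degrees of freedom against 5.59 in the main fit. Its calls therefore do not rest on the spread within each region. Those of the fit without egg replicate 2 hardly do either, at 217 prior degrees of freedom. The causes of these changes were not tested. The paper gives mapped reads per library, and no count here was adjusted for them. By those numbers, the shorter adult list came from the library with the fewest mapped reads of the series. The shorter larval list came from the library with the most. Whether mapped reads set the length of a list was not tested. Reads per peak were not part of the lists, so absence of a peak cannot be told from low depth at that place.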
